A study of Mus musculus with 16 samples.

Results

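The insulin-like growth factor (IGF) genes examined here are Igf1, its receptor gene Igf1r and the binding protein genes Igfbp1 to Igfbp7, 9 genes of the 54838 in the deposited count table. They were chosen by name, and all 9 were found through their Ensembl identifiers in the GENCODE M21 annotation. Of the 9, 8 had enough reads for the test over 18214 genes; Igfbp1 did not. RNA was measured in whole adrenal glands of mice aged 4 weeks, of mixed genetic background, with 4 libraries of separate mice in each of 4 groups: controls and Rspo1 gain of function (GOF) of each sex. Rspo1 encodes R-spondin 1, which is secreted and amplifies WNT signals. The labels name no treatment, and the GOF allele, its promoter and the cells in which it acts are not given in the sources used here.

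IGF1 is a secreted peptide that signals through the IGF1 receptor, a tyrosine kinase closely related to the insulin receptor, and promotes growth and survival of cells. Most circulating IGF1 is made in the liver under growth hormone, and many tissues make it locally. Binding proteins hold IGF1 and IGF2 outside the cell, extend their life and limit or direct their access to the receptor; proteases such as PAPP-A release the ligand again. In the adrenal cortex, signalling through the insulin and IGF1 receptors is needed for the gland to develop normally.

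In GOF adrenals of both sexes, the transcripts of Igf1, Igfbp4, Igfbp5 and Igfbp6 fell. Igfbp6 fell the most, 4.92-fold in females and 5.45-fold in males. Igfbp7, the most abundant transcript of the family, rose 1.40-fold in GOF females, and in males its difference did not pass the test. The receptor Igf1r and the binding protein Igfbp3 did not pass the test in either sex. Between the sexes, Igfbp3 and Igfbp5 were higher and Igfbp7 lower in GOF males than in GOF females, and Igfbp6 was higher in control males than in control females.

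**Figure D1:**
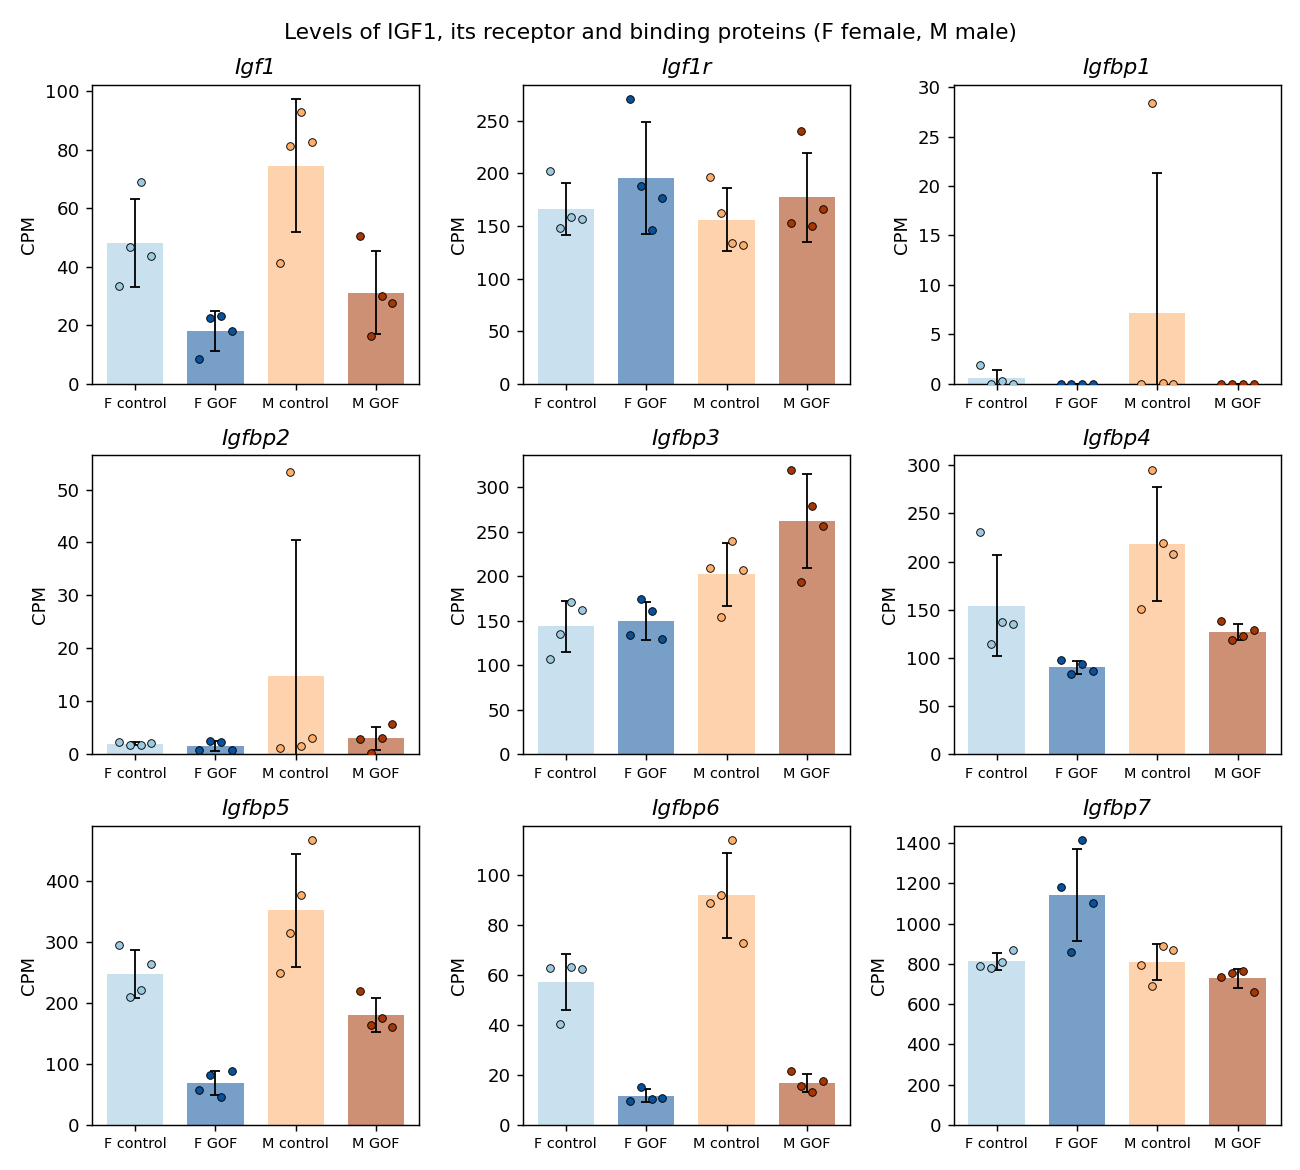
Level of each gene in CPM (vertical axes, counts scaled to library size) in the 4 groups; bars are means, error bars SD (n = 4) and points single libraries. Igf1, Igfbp4, Igfbp5 and Igfbp6 have lower means in GOF than in control of each sex, and the bars of Igfbp1 and Igfbp2 in male controls rest on 1 library.

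Several facts about the libraries bear on these values. Library totals ran from 31275146 to 43003968 counts. Rspo1 lay between 353 and 971 CPM (counts scaled to library size with TMM factors) in the 8 GOF libraries and between 3.19 and 48.2 CPM in the 8 controls. All 8 markers of adrenal cortex reached a mean of 1 CPM in every group, with summed levels from 34723 to 55729 CPM. The 12 liver markers summed to 10016 CPM in male control 2 and to 781 CPM or less elsewhere, and the 11 kidney tubule markers to 1375 CPM in female control 1, 225 CPM in female control 3 and 4.09 CPM or less elsewhere. Liver is a main source of Igf1, Igfbp1, Igfbp2 and Igfbp4, and values of these genes without 1 or more of those libraries are given below.

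The promoters of the 4 genes lower in both sexes and of Igfbp7 are shown because these genes carry the differences described. Each window is RefSeq sequence of the mouse build GRCm38.p6, from 250 bases before to 50 bases after the start that RefSeq gives, read on the strand of the gene. These starts are not always the gene starts of GENCODE M21 printed with each gene below: the RefSeq start lies 2846 bases downstream of the latter for Igf1, 176 bases upstream for Igfbp6, 19 downstream for Igfbp5 and 4 upstream for Igfbp7, and is the same base for Igfbp4. All 9 genes had such a window. Capitals mark every match, on either strand, to 5 motifs. The E-box is CACGTG. The site of the general transcription factor TBP is TATAAA. The core of TCF/LEF sites, through which WNT signals work, is CTTTGA. The steroidogenic factor NR5A1 binds AAGGTCA. The GC box, bound by SP1 factors, is GGGCGG.

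Igf1, chr10:87860861-87861160, plus strand: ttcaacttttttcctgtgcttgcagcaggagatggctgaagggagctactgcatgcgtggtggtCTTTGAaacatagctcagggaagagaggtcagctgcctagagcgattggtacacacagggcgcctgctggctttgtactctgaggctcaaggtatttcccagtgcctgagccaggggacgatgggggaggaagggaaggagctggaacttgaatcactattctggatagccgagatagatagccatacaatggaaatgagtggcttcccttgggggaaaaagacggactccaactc
Igfbp4, chr11:99040994-99041293, plus strand: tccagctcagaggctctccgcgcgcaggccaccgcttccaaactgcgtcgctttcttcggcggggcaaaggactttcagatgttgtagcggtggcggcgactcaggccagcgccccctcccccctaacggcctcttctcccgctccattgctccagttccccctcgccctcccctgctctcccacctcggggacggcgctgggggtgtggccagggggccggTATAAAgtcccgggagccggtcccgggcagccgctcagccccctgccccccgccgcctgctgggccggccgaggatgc
Igfbp5, chr1:72874816-72875115, minus strand: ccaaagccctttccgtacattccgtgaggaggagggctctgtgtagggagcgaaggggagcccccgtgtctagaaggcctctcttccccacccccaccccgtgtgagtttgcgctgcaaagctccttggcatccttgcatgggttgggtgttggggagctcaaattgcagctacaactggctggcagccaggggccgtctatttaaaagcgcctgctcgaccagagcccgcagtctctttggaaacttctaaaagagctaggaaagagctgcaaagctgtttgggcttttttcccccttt
Igfbp6, chr15:102143936-102144235, plus strand: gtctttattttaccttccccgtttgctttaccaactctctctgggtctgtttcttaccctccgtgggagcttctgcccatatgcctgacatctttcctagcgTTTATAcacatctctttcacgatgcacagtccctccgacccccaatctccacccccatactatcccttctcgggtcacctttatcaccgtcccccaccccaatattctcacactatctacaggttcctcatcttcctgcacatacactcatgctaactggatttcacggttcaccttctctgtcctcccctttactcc
Igfbp7, chr5:77407996-77408295, minus strand: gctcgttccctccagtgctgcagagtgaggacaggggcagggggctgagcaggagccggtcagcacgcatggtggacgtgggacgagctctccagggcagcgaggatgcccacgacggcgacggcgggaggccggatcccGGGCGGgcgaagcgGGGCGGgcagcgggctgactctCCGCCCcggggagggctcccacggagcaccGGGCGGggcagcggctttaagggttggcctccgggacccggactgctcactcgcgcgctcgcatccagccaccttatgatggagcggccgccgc

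The 4 promoters had no motif in common among those searched. Igf1 held 1 TCF/LEF core, which 5257 of all 32851 promoter windows hold, and Igfbp4 and Igfbp6 held 1 TBP site each, which 13.6% hold. Igfbp7 held 4 GC boxes; 35.7% of windows hold at least 1. No match to the 5 motifs lay in the Igfbp5 window. The GC content ranged from 49.7% in Igfbp6 to 73.3% in Igfbp7. A match describes letters only.

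Igf1, the ligand (ENSMUSG00000020053, chromosome 10, 87858265 to 87937042, plus strand, GRCm38), fell in GOF adrenals of both sexes. Its level was 33.3, 46.8, 68.9 and 43.7 CPM in female controls 1 to 4 and 8.35, 22.5, 23.2 and 17.9 CPM in female GOF 1 to 4. The female groups did not overlap. It was 41.3, 81.3, 92.8 and 82.7 CPM in male controls 1 to 4 and 50.4, 16.4, 29.8 and 27.7 CPM in male GOF 1 to 4. The male groups overlapped through male control 1, the lowest control, and male GOF 1, the highest GOF library; the latter also had the highest summed level of 10 macrophage markers, 961 CPM against 477 to 548 CPM in the other GOF males, and the part of this in the Igf1 level was not tested. Its log2 fold change came to -1.42 ± 0.373 (SE) in females, at an adjusted p of 0.00786, and -1.26 ± 0.369 in males, at an adjusted p of 0.0156, both from the quasi-likelihood fit of edgeR and adjusted over all tested genes (Benjamini-Hochberg). With no filter on low counts the male value was -1.23 (edgeR, adjusted p 0.0542). In females the call was lost without female controls 1 and 3 and male control 2 together, at -1.33 (edgeR, adjusted p 0.0512). Without female control 1 and male control 2 the log2 fold change was -1.56 in females and -1.22 in males (edgeR, adjusted p 0.00913 and 0.036). Without female control 1 the mean of female controls was 53.1 CPM. Without male control 2 the mean of male controls was 72.3 CPM, against 74.5 CPM with it. Reads of Igf1 and of the antisense gene Igf1os, which overlaps it, cannot be told apart without strand information.

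Igf1 did not pass the test between the sexes. The order of the group means was female GOF (17.99 CPM), male GOF (31.1), female control (48.2) and male control (74.5), and each group overlapped the next. The log2 difference of males from females was 0.63 ± 0.364 (SE) in controls and 0.79 ± 0.369 in GOF, with adjusted p of 0.225 and 0.124 in edgeR. With a covariate for the number range in the sample titles these values were 1.41 and 1.60 (edgeR, adjusted p 0.0937 and 0.0888). Only 1 range held both sexes, and its females were female control 1 and female GOF 1, the lowest Igf1 library of each female group. The covariate values rest largely on those libraries and do not separate sex from range.

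Igf1r, the receptor (ENSMUSG00000005533, chromosome 7, 67952827 to 68233668, plus strand), showed no difference that passed the test. Its 16 libraries lay between 132 and 270.3 CPM, with group means of 166 ± 24.6 CPM in female controls, 195 ± 53.0 in female GOF, 156 ± 30.0 in male controls and 177 ± 42.3 in male GOF (SD, n = 4). All neighbouring groups overlapped. The log2 fold change in GOF was 0.23 ± 0.196 (SE) in females and 0.18 ± 0.196 in males, with adjusted p of 0.366 and 0.495 (edgeR, quasi-likelihood). On the FPKM scale, which accounts for transcript length, the ratio of Igf1 to Igf1r was 0.512 ± 0.191 in female controls and 0.176 ± 0.0914 in female GOF, and 0.870 ± 0.366 in male controls and 0.327 ± 0.185 in male GOF (SD, n = 4).

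**Figure D2:**
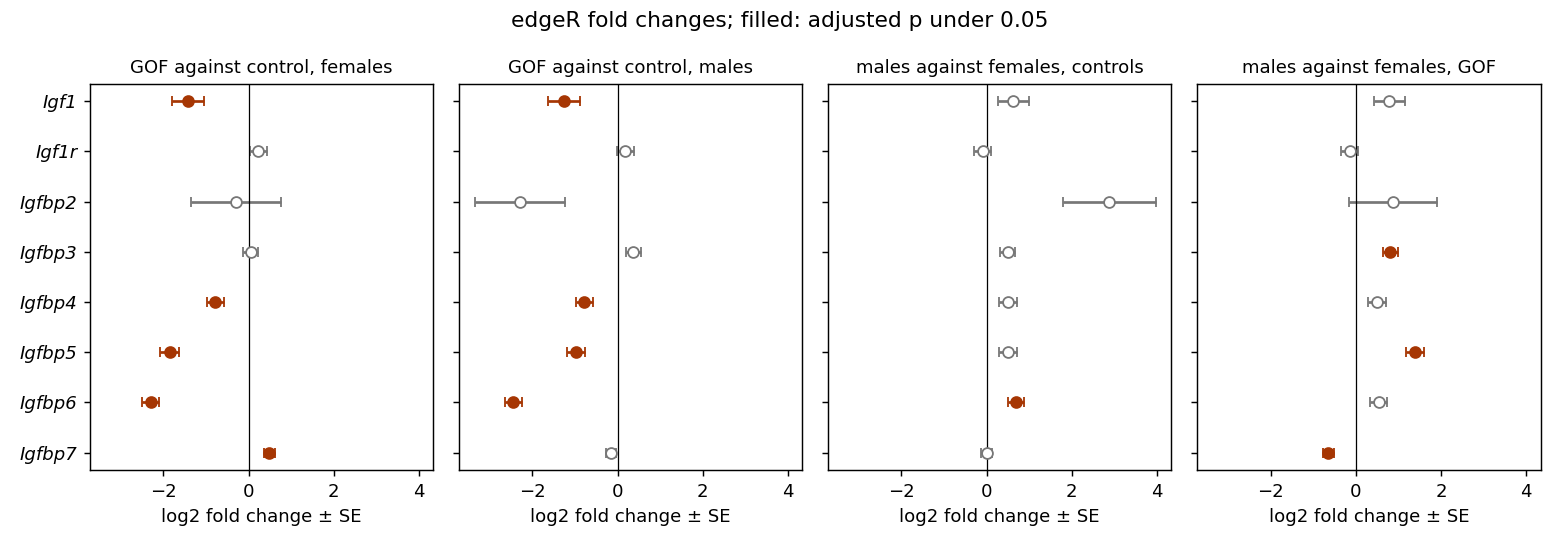
Log2 fold change with its SE (horizontal axes) for the 8 tested genes in 4 comparisons; filled points passed an adjusted p of 0.05 in the quasi-likelihood fit of edgeR. In both panels of GOF against control, Igf1, Igfbp4, Igfbp5 and Igfbp6 lie to the left of 0 with filled points; the wide bars of Igfbp2 come with its single high library.

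In females 5 of the 8 tested genes passed the threshold, 4 lower and 1 higher, where 39.6% of all 18214 tested genes did, 20.6% lower and 19.0% higher. In males 4 of 8 passed, all 4 lower, where 36.9% of all tested genes did, 21.8% lower and 15.2% higher. DESeq2 called 5 in females and 4 in males, beside 41.5% and 40.0% of all genes. The libraries of control and GOF did not overlap for 4 of the 8 in females, beside 37.8% of all genes, and for 3 in males, beside 33.1%. The median log2 fold change of the 8 was -0.53 in females and -0.87 in males, beside 0.05 and 0.01 over all tested genes. The levels are from whole glands, in which fewer cells of a type and less RNA per cell cannot be told apart.

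Igfbp6, a binding protein that prefers IGF2 over IGF1 (ENSMUSG00000023046, chromosome 15, 102144362 to 102149511, plus strand), changed the most among the genes that passed. It stood at 62.8, 40.2, 63.4 and 62.5 CPM in female controls 1 to 4 and at 9.61, 15.4, 10.6 and 10.9 CPM in female GOF 1 to 4. In males it stood at 89.0, 92.3, 114 and 72.8 CPM in controls 1 to 4 and at 21.5, 15.6, 13.0 and 17.5 CPM in GOF 1 to 4. Every control library lay above every GOF library. GOF against control gave a log2 fold change of -2.30 ± 0.202 (SE) in females and -2.45 ± 0.202 in males, with adjusted p of 2.11e-06 and 9.69e-07 (edgeR, quasi-likelihood). Leaving out any 1 library kept it between -2.51 and -2.22 in females and between -2.61 and -2.33 in males. The interaction of sex and genotype was -0.15 ± 0.273, adjusted p 0.806 in the same edgeR fit.

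Igfbp5, a binding protein that also attaches to extracellular matrix (ENSMUSG00000026185, chromosome 1, 72857932 to 72874884, minus strand), fell in both sexes. In females it went from 295, 209.6, 221 and 264 CPM in controls 1 to 4 to 56.9, 82.5, 46.3 and 87.7 CPM in GOF 1 to 4. In males it went from 249.7, 314, 377 and 467 CPM in controls 1 to 4 to 220.0, 164, 176 and 160.3 CPM in GOF 1 to 4. Control and GOF did not overlap in either sex, and every GOF female lay below every GOF male. On the log2 scale the change was -1.85 ± 0.220 (SE) in females, adjusted p 2.13e-05, and -0.97 ± 0.215 in males, adjusted p 0.00276 (edgeR, quasi-likelihood). The difference between these changes, 0.89 ± 0.302 on the log2 scale, did not pass in edgeR (adjusted p 0.114) and passed in DESeq2 (0.92, adjusted p 0.0382); for the interaction 4.21% of all tested genes passed in edgeR and 7.87% in DESeq2.

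Igfbp4, which mostly restrains IGF action until PAPP-A cleaves it (ENSMUSG00000017493, chromosome 11, 99041244 to 99054392, plus strand), fell 1.71-fold in females and 1.72-fold in males. It went from 231, 114, 138 and 135 CPM in female controls 1 to 4 to 97.4, 83.0, 93.9 and 86.3 CPM in female GOF 1 to 4. In males it went from 151, 295, 219 and 208 CPM in controls 1 to 4 to 138, 119, 123 and 129 CPM in GOF 1 to 4. The groups did not overlap in either sex, and the highest library of each control group was the one with its highest kidney or liver marker sum. Its log2 fold change came to -0.78 ± 0.203 (SE) in females and -0.78 ± 0.202 in males, with adjusted p of 0.00745 and 0.00768 (edgeR, quasi-likelihood). Without female control 1 and male control 2 together the values were -0.52 and -0.60 (edgeR, adjusted p 0.00416 and 0.00162).

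Several lists of markers of other cells were lower in GOF, as these 4 genes were. Of 8 markers of capsule and stromal fibroblasts, 7 were lower in GOF females and 8 in GOF males past the threshold; their summed level was 987 to 1182 CPM in female controls and 250.1 to 605 in female GOF, and 1281 to 4006 in male controls and 591 to 738 in male GOF. Adipocyte markers were lower for 6 of 7 genes in females, from 929 to 1491 CPM in controls to 401 to 624 in GOF, and for 7 of 7 in males, from 1158 to 2865 to 329.9 to 439. All 8 markers of the medulla were lower in each sex, from 4771 to 11454 CPM over the controls to 197 to 883 over the GOF libraries. Every marker of these 3 lists had over 3 counts in at least 1 library of each group. Liver markers were lower for 12 of 12 genes in GOF males and for 1 of 12 in GOF females, and their sums did not overlap in either sex: 118 to 175 CPM in female controls against 15.5 to 43.7 in female GOF, and 183 to 10016 in male controls against 8.78 to 91.7 in male GOF. In GOF males 4 of 7 smooth muscle and pericyte markers were lower, and 5 of 10 macrophage markers were higher and 1 lower. These counts stand beside 20.6% of all tested genes lower and 19.0% higher in females, and 21.8% lower and 15.2% higher in males. The part of these lists in the levels of Igf1, Igfbp4, Igfbp5 and Igfbp6 was not tested.

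**Figure D3:**
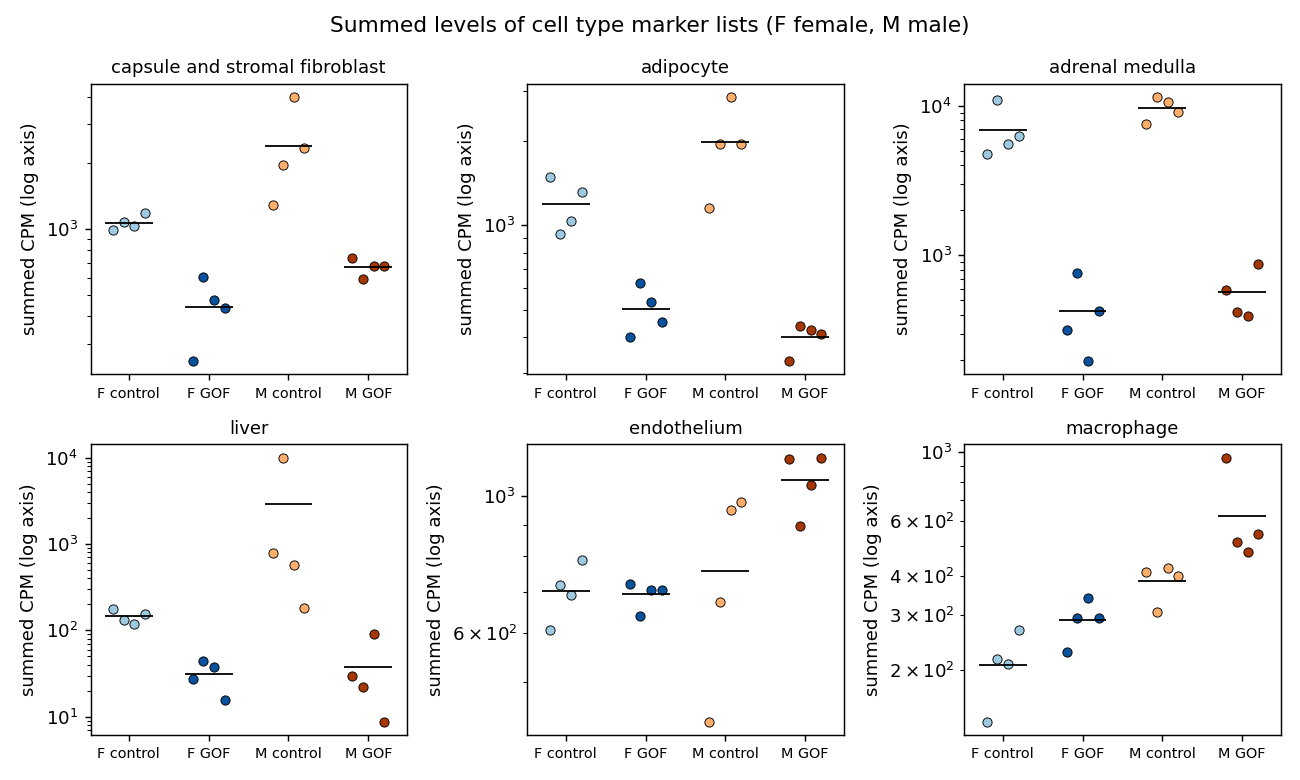
Summed CPM of marker lists (vertical axes, log scale) in each library (points), with group means as lines. Capsule and stromal, adipocyte and medulla markers are lower in all GOF libraries than in the controls of their sex, the liver list stands at 10016 CPM in male control 2, and endothelial markers overlap between female controls and female GOF.

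Igfbp3, the main carrier of IGF1 in blood (ENSMUSG00000020427, chromosome 11, 7206086 to 7213923, minus strand), was higher in GOF males than in GOF females. It stood at 107, 135, 171 and 162 CPM in female controls 1 to 4 and at 134, 174, 161 and 129.8 CPM in female GOF 1 to 4. The female groups overlapped. In males it stood at 209, 154, 239 and 207 CPM in controls 1 to 4 and at 319.6, 193, 279 and 256 CPM in GOF 1 to 4. All 4 GOF males lay above all 4 GOF females, and the log2 difference was 0.81 ± 0.177 (SE) at an adjusted p of 0.00317 (edgeR, quasi-likelihood). In controls the sex difference of 0.49 ± 0.176 did not pass (edgeR, adjusted p 0.0554). It did in DESeq2 (adjusted p 0.0449), without male GOF 2 (adjusted p 0.0427), with a covariate for the number range in the sample titles, at 0.82 (adjusted p 0.0485), and without male control 2, at 0.60 (edgeR, adjusted p 0.027). The covariate value rests largely on female control 1, the lowest female control and the only one in a range that also held males. The GOF effect in males, 0.37 ± 0.176, did not pass in edgeR (adjusted p 0.11) and passed without male GOF 2, at 0.48 (adjusted p 0.0454), and with limma on filtered log2(FPKM + 1), at 0.48 (adjusted p 0.0448).

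Igfbp7, which binds IGFs weakly and is made by vessels among other tissues (ENSMUSG00000036256, chromosome 5, 77349240 to 77408041, minus strand), rose in GOF females. It stood at 788, 779.5, 809.5 and 870.5 CPM in female controls 1 to 4 and at 1182, 859.7, 1414 and 1105 CPM in female GOF 1 to 4. Female GOF 2 lay within the controls, and the other 3 lay above all of them. In males it stood at 795, 689, 890.2 and 867 CPM in controls 1 to 4 and at 736, 753, 763 and 661 CPM in GOF 1 to 4, and these groups overlapped. On the log2 scale the change was 0.49 ± 0.125 (SE) in females, adjusted p 0.00639, and -0.15 ± 0.125 in males, adjusted p 0.355 (edgeR, quasi-likelihood).

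The female call was lost without female controls 1 and 3 and male control 2 together, at 0.46 (edgeR, adjusted p 0.0539). The test of the difference between these effects of GOF on Igfbp7 lay at the threshold. The interaction was -0.64 ± 0.177 (SE) on the log2 scale (adjusted p 0.0541 in edgeR and 0.0155 in DESeq2). It passed in edgeR without female GOF 2, at -0.73 (adjusted p 0.0158), and without male control 2, at -0.72 (adjusted p 0.0425). GOF males were lower than GOF females by -0.65 ± 0.125, with no overlap (edgeR, adjusted p 0.00139); with a covariate for the number range in the sample titles that value was -0.67 (adjusted p 0.0588). In GOF females 0 of 8 endothelial markers passed the threshold in edgeR, and they summed to 606 to 789 CPM in female controls and to 639.6 to 721 in female GOF. In GOF males 3 of 8 were higher, with sums of 431 to 978 CPM in male controls and 896 to 1156 in male GOF. Between GOF males and GOF females 7 of the 8 endothelial markers were higher in males, while 4 of 8 adrenal cortex markers were lower and 1 higher. Over all tested genes 13.3% were higher and 16.3% lower in that comparison. The part of these lists in the level of Igfbp7 was not tested. Polr2b and Gm34648 overlap Igfbp7 on the other strand, and their reads cannot be told apart from it without strand information.

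Igfbp1 and Igfbp2, binding proteins known from the liver, were low in these adrenals apart from male control 2. Igfbp1 (ENSMUSG00000020429, chromosome 11, 7197782 to 7202546, plus strand) had 973 counts in male control 2, 69 in female control 1, 11 in female control 3, 2 or fewer in the other 13 libraries, and 0 in 10 of them. The floor of 3 counts lay between 0.0686 and 0.0967 CPM, so a library with 0 counts could hold up to that level, counting error alone considered. The 3 libraries above it are the one with the highest liver marker sum and the pair with the highest kidney marker sums. The mean of male controls was 7.13 CPM, and 0.0206 CPM without male control 2; that of female controls was 0.549 CPM, and 0.113 CPM without female control 1. Igfbp2 (ENSMUSG00000039323, chromosome 1, 72824503 to 72852474, plus strand) stood at 53.2 CPM in male control 2 and between 0.285 and 5.76 CPM in the other 15. The log2 fold change of Igfbp2 in males was -2.30 ± 1.06 (SE), adjusted p 0.104 (edgeR, quasi-likelihood), and 0.59 (adjusted p 0.545) without male control 2. Between the sexes in controls it was 2.88 ± 1.09 (edgeR, adjusted p 0.0694), which passed in DESeq2 (adjusted p 0.0238) and without male control 1 or 3 (adjusted p 0.0361 and 0.0491), and -0.0050 without that library (adjusted p 0.997). In GOF females the log2 fold change was -0.29 ± 1.05, adjusted p 0.848.

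These genes lie in tail-to-tail pairs that differed in level. The ends of Igfbp1 and Igfbp3 are 3539 bp apart on chromosome 11, and those of Igfbp2 and Igfbp5 are 5457 bp apart on chromosome 1. On the FPKM scale Igfbp5 stood at 46.5 ± 8.19 and Igfbp2 at 1.82 ± 0.250 in female controls, and Igfbp3 at 67.2 ± 13.5 and Igfbp1 at 0.350 ± 0.567 (SD, n = 4).

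The make-up of the binding protein transcripts was then described on the FPKM scale. Igfbp7 made up 70.0% ± 3.61 of the summed FPKM of Igfbp1 to Igfbp7 in female controls, 84.6% ± 3.24 in female GOF, 60.8% ± 5.73 in male controls and 68.7% ± 3.40 in male GOF (SD, n = 4). No female GOF library, from 79.9% to 87.3%, overlapped the other groups, which ran from 52.6% to 73.7%. Without Igfbp7 the other 6 genes summed to 292 ± 52.5 FPKM in female controls and 175 ± 10.8 in female GOF, and to 441 ± 71.7 in male controls and 304 ± 41.0 in male GOF. Igfbp4 was the next largest share in controls, 10.6% to 18.7% over the females and 12.2% to 22.1% over the males. In male GOF it was Igfbp3 by the group mean, at 13.8% ± 2.31 against 11.7% ± 0.801 for Igfbp4. In male GOF 2, however, Igfbp4 (11.3%) lay above Igfbp3 (10.5%). In female GOF the means were 6.67% ± 0.787 for Igfbp4 and 6.42% ± 1.76 for Igfbp3. These shares rest on the mean transcript length behind the deposited FPKM, and a share falls when another member rises.

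**Figure D4:**
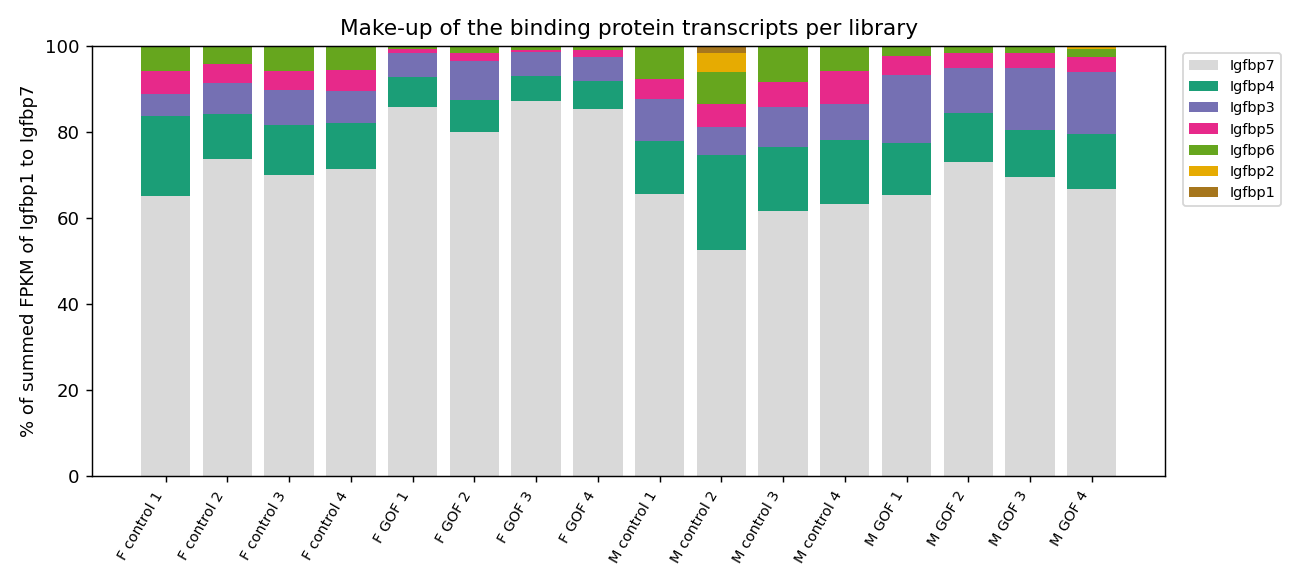
Share of each gene in the summed FPKM of Igfbp1 to Igfbp7 (vertical axis, percent) for each of the 16 libraries. Igfbp7 takes 79.9% to 87.3% in the 4 female GOF libraries and less in all others, and Igfbp1 and Igfbp2 are visible in male control 2.

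Between control males and control females 1 of the 8 genes passed, Igfbp6, where 23.4% of all tested genes did, 13.5% higher and 9.89% lower in males. DESeq2 called 3, Igfbp2, Igfbp3 and Igfbp6, beside 27.9% of all genes, and the ranges did not overlap for 1, beside 25.3%. The log2 difference of Igfbp6 was 0.69 ± 0.192 (SE), higher in males, at an adjusted p of 0.0191 (edgeR, quasi-likelihood), and the groups did not overlap. The call was lost without female control 2 (0.55, adjusted p 0.0549) or male control 3 (0.57, adjusted p 0.0609), without female controls 1 and 3 and male control 2 together (0.84, adjusted p 0.0756), and with a covariate for the number range in the sample titles (0.82, adjusted p 0.0804). Without male control 1, Igfbp6 passed with Igfbp2, Igfbp4 and Igfbp5. Igfbp4 was 0.50 ± 0.202 (SE) higher in control males, with overlap, and did not pass (edgeR, adjusted p 0.0841). Which side of the threshold it fell on depended on single libraries: it passed without female control 1, the library with the highest kidney marker sum, at 0.76 (edgeR, adjusted p 0.00506), and without male control 1, at 0.64 (adjusted p 0.0249). It also passed without female control 1 and male control 2 together, at 0.58 (edgeR, adjusted p 0.00713), and without female control 3 as well, at 0.63 (adjusted p 0.0177). Without male control 2 alone the value was 0.32 (edgeR, adjusted p 0.265), and with the covariate for the number range 0.16 (adjusted p 0.726). The covariate value rests largely on female control 1, the only control female in a range that also held males. It is therefore no check separate from that library. In control males, 6 of 8 capsule and stromal markers, 7 of 10 macrophage markers and 9 of 12 liver markers were higher than in control females; the part of these lists in the levels of Igfbp4 and Igfbp6 was not tested.

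In GOF 3 of the 8 genes passed between the sexes, 2 higher and 1 lower, where 29.6% of all tested genes did, 13.3% higher and 16.3% lower. DESeq2 called 5, beside 32.8% of all genes, and the ranges did not overlap for 4, beside 29.1%. Besides Igfbp3 and Igfbp7, given above, Igfbp5 was higher in males by 1.40 ± 0.217 (SE) on the log2 scale, at an adjusted p of 0.000292 (edgeR, quasi-likelihood). Igfbp4 was 0.50 ± 0.202 higher in GOF males at an adjusted p of 0.0775 with no overlap, and Igfbp6 0.54 ± 0.196 at an adjusted p of 0.0501. Both of these calls depended on the fit: DESeq2 gave adjusted p of 0.04 for Igfbp4 and 0.0245 for Igfbp6. Igfbp4 also passed without female control 1 or male control 2, and Igfbp6 without female control 2, female GOF 2, male control 3, male control 4 or male GOF 3, with adjusted p from 0.016 to 0.048. With the covariate for the number range neither passed: Igfbp4 stood at 0.14 (edgeR, adjusted p 0.816) and Igfbp6 at 0.74 (adjusted p 0.153). Between GOF males and GOF females, 5 of 8 capsule and stromal markers, 8 of 10 macrophage markers and 7 of 8 endothelial markers were higher in males, and the part of these lists in the levels of Igfbp3, Igfbp4, Igfbp5 and Igfbp6 was not tested. For the interaction 0 of the 8 passed in edgeR, beside 1.59% of all genes higher and 2.61% lower, with 2 at an unadjusted p under 0.05, and 2 passed in DESeq2, Igfbp5 and Igfbp7.

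The labels name no batch, but the animal numbers in the sample titles fall into 4 ranges, which were used as a check. Within the range that held 1 female of each genotype, the log2 difference of GOF from control was -2.70 for Igfbp6, -2.37 for Igfbp5, -1.25 for Igfbp4 and -1.99 for Igf1. Within the range of 2 GOF and 3 control females it was -2.08, -1.90, -0.54 and -1.19 in the same order. In males the range of 2 GOF and 3 controls gave -2.41, -0.71, -0.74 and -1.24, and the range of 2 GOF and 1 control gave -2.27, -1.48, -0.72 and -1.52. These 4 genes were taken because they had fallen, so the signs are no further evidence. No other range held both genotypes of 1 sex. Only the range with 1 female of each genotype held both sexes. Every sex difference fitted with the covariate therefore rests largely on female control 1 and female GOF 1, and sex and range are otherwise confounded.

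Other genes of the pathway were read from a list of 46 genes by role, of which 43 were tested; Ins2, Irs4 and Igfbpl1 were too low. In GOF females 4 were higher and 14 lower past the threshold, and in GOF males 2 were higher and 22 lower. The median log2 fold change of the list was -0.12 in females and -0.33 in males. These counts, and those by role below, stand beside 19.0% of all tested genes higher and 20.6% lower in females and 15.2% higher and 21.8% lower in males.

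Among ligands and receptors, Igf2, the second ligand, fell in both sexes but was near the detection limit. It had 12 to 22 counts in female controls and 2 to 6 in female GOF, and 23 to 51 counts in male controls and 1 to 3 in male GOF, which was at least 12.8-fold lower in males against 3 counts per library. Insrr, a receptor of the insulin receptor family, fell in females from 5.13 ± 2.35 to 0.830 ± 0.623 CPM, and in males from 12.9 ± 7.77 to 1.14 ± 0.254 CPM (SD, n = 4), with log2 fold changes of -2.61 and -3.50. With 1 library left out the female value ran from -3.29, without female GOF 2, to -2.235. Without female control 1 and male control 2 together the values were -2.23 in females and -3.04 in males. Without male control 2 the mean of male controls was 9.34 CPM. Igf2r, which clears IGF2 from the cell surface, rose in females by 0.46 ± 0.111 (SE) on the log2 scale, adjusted p 0.00454 (edgeR, quasi-likelihood). Insr, the insulin receptor, stood at -0.02 in females and 0.06 in males and did not pass; it and Ghr and Pik3r1 below were named after their values were seen.

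Among carriers and proteases, 4 of 6 tested genes were lower in each sex and none was called higher, beside 20.6% of all genes lower in females and 21.8% in males. Several marker lists of other cells were lower in GOF as well, as given above, and their part in these levels was not tested. Igfals, the partner of IGF1 and Igfbp3 in the large serum complex, fell in females from 2.65 ± 0.874 to 0.354 ± 0.192 CPM, and in males from 5.46 ± 1.68 to 0.204 ± 0.155 CPM (SD, n = 4), log2 fold changes of -2.89 ± 0.497 and -4.70 ± 0.539 (SE). Pappa, the protease PAPP-A that cleaves Igfbp4, fell in females from 2.06 ± 1.14 to 0.345 ± 0.251 CPM, and in males from 2.48 ± 0.692 to 0.361 ± 0.0934 CPM. In females its log2 fold change was -2.54, or -3.17 without female GOF 2 and -1.95 without female controls 1 and 3 and male control 2.

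Downstream genes were read by role as well. Of 8 tested adaptors, 1 was higher and 3 lower in females, and 6 were lower in males; of 16 genes of the kinase cascade and FOXO factors, 2 were higher and 2 lower in females, and 7 were lower in males. Over all genes 39.6% passed in females and 36.9% in males. Pik3r1, a regulatory subunit of the kinase that IGF1 receptors activate, fell by 1.69 on the log2 scale in females and by 1.25 in males. Akt2, a kinase of this cascade, rose in females from 315 ± 31.0 to 425 ± 37.8 CPM, and fell in males from 345 ± 6.32 to 229.6 ± 50.6 CPM (SD, n = 4). The female call of Akt2 was lost without female GOF 4, at 0.37 (edgeR, adjusted p 0.0607), and without female controls 1 and 3 and male control 2 together (adjusted p 0.0551). Pik3r2, another regulatory subunit, rose by 0.41 in females. Grb14, an adaptor that inhibits the insulin receptor, was higher in males than in females in controls, by 1.25 ± 0.206 (SE), and in GOF, by 2.01 ± 0.212. With a covariate for the number range the control value was 1.03 and did not pass (edgeR, adjusted p 0.0504).

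The IGF2 mRNA-binding proteins, which bind RNA and no IGF peptide, and the growth hormone arm were the remaining roles. Of the 3 mRNA-binding proteins, 1 was lower and 0 higher in GOF females, and 2 were higher and 1 lower in GOF males. Igf2bp2 fell in both sexes, with no overlap: female controls stood at 9.50 ± 0.926 CPM and female GOF at 3.21 ± 0.449, male controls at 13.8 ± 1.55 CPM and male GOF at 4.19 ± 0.641 (SD, n = 4). Its log2 fold changes were -1.56 ± 0.151 and -1.71 ± 0.151 (SE), at adjusted p of 4.06e-06 and 1.35e-06 (edgeR, quasi-likelihood), and both calls held under all 28 alternatives; these GOF values were chosen after they were seen. Igf2bp1 rose in GOF males from 0.641 ± 0.131 to 2.74 ± 0.808 CPM and Igf2bp3 from 1.55 ± 0.167 to 3.77 ± 0.505 CPM (SD, n = 4), with adjusted p of 0.000788 and 0.000209 (edgeR, quasi-likelihood); neither passed in females. Ghr, the growth hormone receptor, fell by 1.59 on the log2 scale in females and by 1.93 in males, and both calls held under all 28 alternatives. Of the 6 genes in that arm, 2 were lower in each sex and 0 higher, beside 20.6% and 21.8% of all genes lower.

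**Figure D5:**
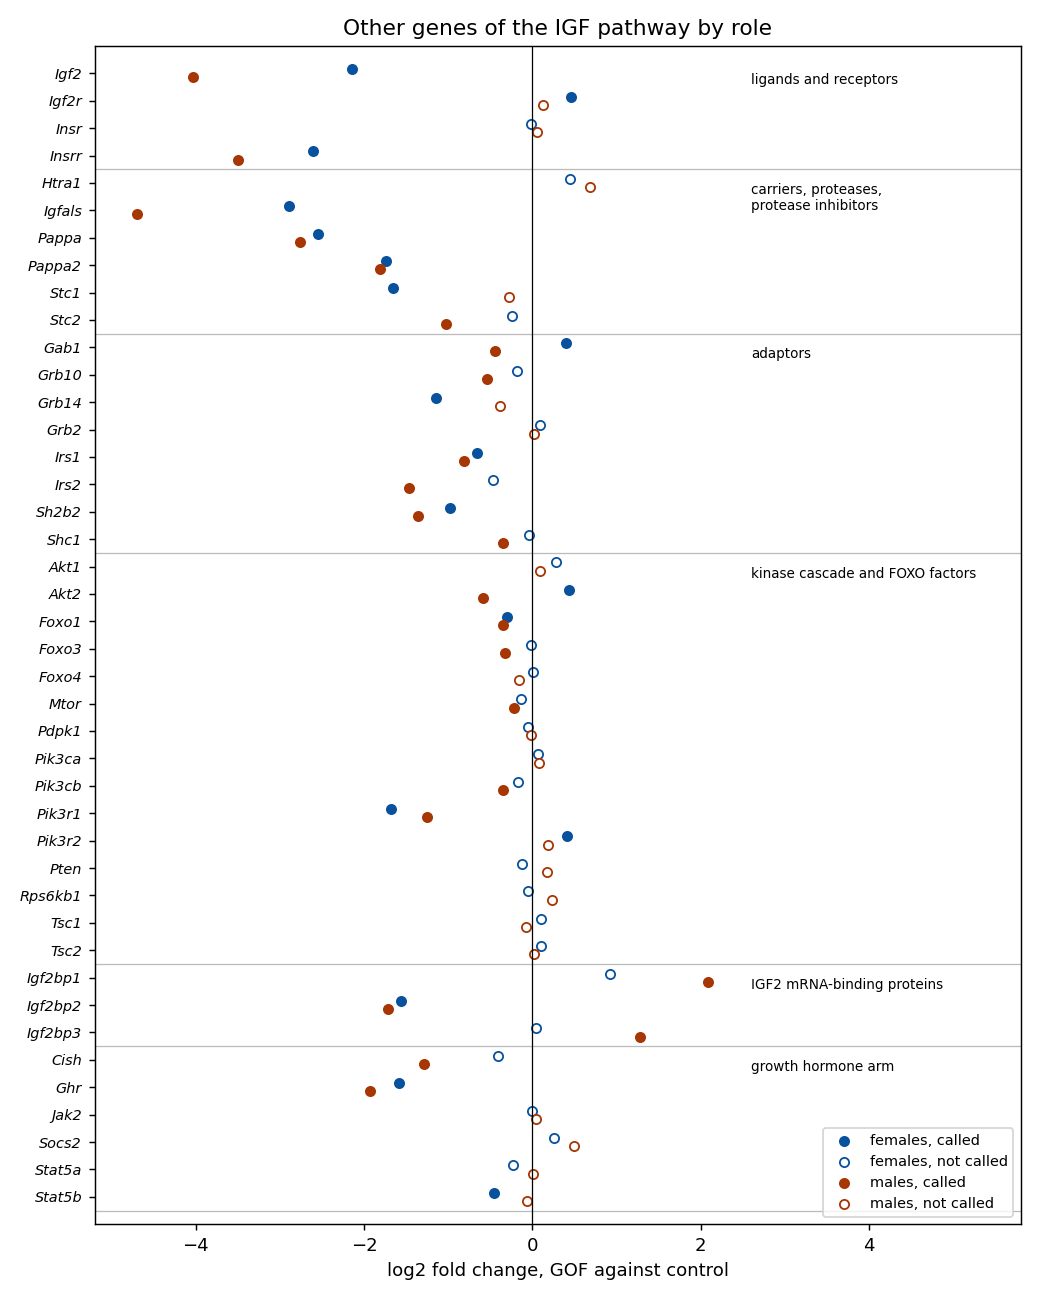
Log2 fold change of GOF against control (horizontal axis) for 42 of the other genes of the pathway, grouped by role, in females and males; filled points passed an adjusted p of 0.05. The carriers and proteases lie mostly to the left of 0 in both sexes, Akt2 and Gab1 lie on opposite sides of 0, and the male value of Igf2 rests on 3 counts or fewer per GOF library.

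Between the sexes, 6 of the 43 were higher and 8 lower in control males, where 13.5% of all tested genes were higher and 9.89% lower, and 4 were higher and 8 lower in GOF males, where 13.3% were higher and 16.3% lower. In controls, Igf2bp3 was lower in males by -1.04 on the log2 scale, Stat5b, a transcription factor that growth hormone activates, by -0.67 and Pik3r1 by -0.63, and Igf2bp2 was higher by 0.54. Igf2 was higher by 1.16, a call lost in 9 of the alternatives, among them without female control 2, 3 or 4, without male control 2 or 4, and with the number-range covariate, at 0.47. Igf2bp2 lost its call without female control 3 (edgeR, adjusted p 0.0621) and in 3 other alternatives. In GOF, Akt2 was lower in males by -0.89, the adaptor Irs2 by -0.87 and Akt1 by -0.81, and Igf2bp1 was higher by 1.42 and the protease Htra1 by 0.97. With the covariate for the number range, Igf2bp1 (0.86, adjusted p 0.259), Htra1 (1.30, adjusted p 0.116) and Irs2 (-0.56, adjusted p 0.237) did not pass in edgeR. Htra1 lost this call also without male GOF 1, at 0.71 (edgeR, adjusted p 0.064), and Irs2 lost it without male GOF 3 or male GOF 4, with adjusted p of 0.0575 and 0.0548.

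Genes whose log2 levels followed a member most closely over the 16 libraries were listed as a description, since the libraries share their groups. For Igfbp6 these were Islr, Dcn and Gsn, each with a Pearson r of 0.985; Dcn encodes decorin, a proteoglycan of connective tissue, and is among the capsule and stromal markers. For Igfbp5 they were Lrrc4 and Prdm16 (0.958 to 0.960), for Igf1 Ppip5k1, Tgfb3 and Fam217b (0.933 to 0.950), and for Igfbp4 Gucd1, Pde9a and Ap2a2 (0.937 to 0.941). For Igfbp7 they were Mrps9, Gpha2 and Dhodh (0.903 to 0.942) and for Igfbp3 Bnip2, Tent5b and Plcl2 (0.908 to 0.919). The closest to Igfbp2 were Agtpbp1, Reps2 and Amdhd1 (0.855 to 0.890) and to Igf1r Ampd2, Akap9 and Gnat2 (0.812 to 0.856).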

How the data were processed

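Adrenal RNA of 16 mice was sequenced as paired 150 bp reads from NEBNext Ultra libraries, after an RNA integrity minimum of 7.0, per the labels' protocols. The submitters' processing notes name Bowtie2 2.2.3, TopHat2 2.0.12, HTSeq 0.6.1 and DESeq 1.18.0; the genome build, annotation and strand setting are not given in the sources used here. The deposited counts are whole read counts per Ensembl gene without normalization. Deposited FPKM, also from the authors, are scaled to gene length and library total; the length they imply lay within 1% of the mean transcript length in GENCODE M21 for 98.0% of 34180 genes, so names and coordinates are from that annotation (GRCm38), which held 54723 of the 54838 identifiers.

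The test was the quasi-likelihood F test with robust dispersion in edgeR (version 4.0.16, under R 4.3.3). TMM factors, filterByExpr and a mean per group over 16 libraries were used for 5 contrasts, adjusted by Benjamini-Hochberg over 18214 genes with a threshold of 0.05. Standard errors are the fold change over the root of F. CPM are TMM-scaled. The FPKM served for comparisons between genes and for limma 3.58.1. The alternatives are given in the closing section; DESeq2 was 1.42.0. Chi-square per degree of freedom between libraries of a group was at least 26.8, so none was a copy. The fits were tested on simulated data. Members and lists were chosen with earlier results of these data known. The rule for names took all 9 members, the 3 highest and 3 lowest called pathway genes per contrast and the 3 genes best correlated with each member; a few more are marked in the text, and 2 genes under the rule are not reported here. Summaries were made in Python 3.11.15 (pandas 2.3.3, numpy 2.4.6) and plots in matplotlib 3.10.9.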

Additional observations from a re-analysis of the deposited data

Results flagged for a closer look

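Of 34 combinations of a gene and a group of 4 libraries, 3 had a library far from the other 3 by Dixon's criterion, which chance meets in about 1 of 20 groups. Igfbp1 was at 28.4 CPM and Igfbp2 at 53.2 CPM in male control 2, the library with the highest liver marker sum. Igfbp6 was at 40.2 CPM in female control 2, below the other female controls.

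The effect of GOF differed between the sexes, by the interaction test of edgeR, for 3 of the other pathway genes given here: Akt2 (-1.02 on the log2 scale, males minus females), Gab1 (-0.84) and Igf2bp3 (1.245). Of all tested genes 4.21% passed this test. Gab1, a docking protein for receptor signals, lost the call without female GOF 4, male GOF 3 or male GOF 4, at adjusted p of 0.0568, 0.0536 and 0.0578, and in 2 other alternatives. Igf2bp3 lost it in 9 of its 27 alternatives, among them without female control 3, female GOF 4, male control 3, male GOF 1 or male GOF 4. Akt2 kept it in all 27.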

How the results depend on the processing

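No paired analysis was possible because the labels give no replicate numbers. The alternatives were DESeq2, RLE or upper-quartile factors, other filters, only the groups compared, limma on FPKM, a covariate for the range of animal numbers, omission of single libraries, and omission of female control 1 with male control 2; leaving out female control 3 as well was added after seeing the data. The counts of members called in females stayed at 5 and those in males at 4 or 5 when 1 library was left out. In females the count was 3 without the 3 libraries together, which dropped Igf1 and Igfbp7. There the calls over all genes went from 7218 of 18214 to 4554 of 18935. Between the sexes in controls it was 3 with DESeq2, 2 without female control 1 and male control 2, and 0 to 4 when 1 library was left out, with 0 without female control 2 and 4 without male control 1. Over all genes 4266 of 18214 passed in the main fit, 5085 of 18214 with DESeq2 and 3083 of 18381 without those 2 libraries. Without female control 2 it was 3277 of 18641, and without male control 1 it was 4881 of 18654. In GOF the count of members was 5 with DESeq2, upper-quartile factors or limma on log2(FPKM + 1) or log2(FPKM + 0.1) with a mean FPKM of at least 0.5. Over all genes 5977 and 5229 of 18214 and 4800 and 4887 of 15831 passed there, in that order, beside 5394 in the main fit. For the interaction the count of members was 2 with DESeq2, where 1434 of 18214 genes passed beside 766 in the main fit, and 0 to 1 when 1 library was left out. Of the other pathway genes, 3 passed between control sexes with the covariate, 8 without 2 and 6 without 3 libraries, where the calls over all genes went from 4266 to 1311, 3083 and 1648, and 9 to 15 when 1 was left out, the fewest without female control 3. In GOF 6 passed with the covariate, where the calls over all genes went from 5394 to 1336. Only 1 number range held both sexes, with 1 female of each genotype, so this fit holds little information on sex. For GOF against control the covariate took the calls over all genes from 7218 to 6281 in females and from 6724 to 5948 in males. For the interaction 4 of 43 passed in the main fit, 2 with no count filter, 1 with limma on log2(FPKM + 1) and no filter, 2 without 2 and 1 without 3 libraries, and 1 to 4 when 1 was left out. The calls over all genes went from 766 of 18214 to 408 and 407 of 34196, 448 of 18381 and 175 of 18935, in the same order. They ran from 377 to 953 when 1 library was left out. The cause of the other changes was not tested.

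Values that changed sign had not passed the test. Igfbp2 in males became 0.588 without 2 and 0.585 without 3 libraries (-2.82 to 0.588 with 1 left out), and its interaction 0.804 and 0.846 (-2.49 to 0.881); its control sex difference ran from -0.005 to 3.26. Igfbp3 in females became -0.0635 without 2 libraries (-0.0648 to 0.151). The Igfbp4 interaction became 0.0345 with DESeq2, 0.0346 with RLE, 0.104 with upper-quartile factors, 0.0474 with no filter, 0.0416 with 10 counts in every library, and 0.0365, 0.0385 and 0.0365 in the 3 limma fits (-0.266 to 0.174). The Igf1r interaction became 0.0495 with upper-quartile factors, 0.0238, 0.0248 and 0.0238 in the limma fits and 0.0521 with the covariate (-0.210 to 0.146). Igf1r became 0.0169 between control sexes without 3 libraries (-0.222 to 0.0165) and ran from -0.0151 to 0.313 in males and -0.313 to 0.0545 between GOF sexes. Igfbp7 between control sexes became 0.0045 in the limma fits, 0.0525 without 2 and 0.0427 without 3 libraries (-0.0508 to 0.0672). The Igf1 interaction ran from -0.155 to 0.397 and that of Igfbp6 from -0.264 to 0.0457.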
